A study of Mus musculus with 8 samples.

Results

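The expression of 10 genes of blood coagulation and fibrinolysis was followed through blood monocytes (MCs) of control and diabetic mice. They were F13a1, F10, F5, F7, Thbs1, Thbd, Plaur, Plau, Tfpi and Serpinb2. They were chosen by gene symbol, with earlier results of these data known. All 10 were found among the 16486 genes of the deposited expression table. RNA-Seq had been run on MCs sorted from blood as CD11b+ Ly6G- cells with high (Ly6Chigh) or low (Ly6Clow) surface Ly6C, the mouse counterparts of classical and non-classical MCs. Control (CT) mice were C57/BL6 males. T1DM mice were C57/BL6 males given streptozotocin, a toxin of pancreatic beta cells, intraperitoneally at 50 mg/kg/day for 5 days, starting at 8 weeks of age. The T2DM group consisted of db/db mice, homozygous for a leptin receptor mutation, so T2DM differed from T1DM in genotype as well as in the type of diabetes. All mice ate standard chow, and blood was drawn at 20 to 22 weeks of age. RNA of 5 mice was pooled for each group, and pools were sequenced in duplicate, so libraries of the same group may be technical repeats and the p-values measure only the spread between these libraries. The 8 libraries analysed here were 2 CT Ly6Chigh, 2 CT Ly6Clow and 1 of each subset for T1DM and T2DM.

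Clotting is a cascade of plasma proteases. Tissue factor with factor VII starts it, factor X with its cofactor factor V makes thrombin, thrombin turns fibrinogen into fibrin, and factor XIII crosslinks the fibrin. Most of these proteins come from the liver, but MCs and macrophages are a known source of the factor XIII A chain and of several others. MCs also carry brakes on clotting, such as thrombomodulin, and the receptor that concentrates the plasminogen activator urokinase on the cell surface, where plasmin then dissolves fibrin.

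The deposited values are log2 expression per gene without counts. The study gives the same read number for every sample, which could not be checked against these values. It obtained gene counts and TPM values, which are scaled to transcript length. Which of them underlies the deposited values is not stated, so levels are not ranked between genes. The classical marker Ly6c2 was at 8.56 to 8.72 in the Ly6Chigh libraries and at 2.69 to 4.07 in the Ly6Clow libraries. Nr4a1, the nuclear receptor on which non-classical MCs depend, was at 7.03 to 8.11 in Ly6Chigh and at 7.80 to 8.28 in Ly6Clow. It did not pass the test. Of 8 non-classical MC markers, 4 were called lower in Ly6Chigh, while Cx3cr1 was higher there by 0.60 on the log2 scale. In CT alone, 1 of the 8 was called lower and 3 had higher estimates in Ly6Chigh. Their summed linear level was 2689 and 2700 in CT Ly6Chigh and 2775 and 2811 in CT Ly6Clow. In T1DM and T2DM it was 2033 and 1364 in Ly6Chigh, against 3656 and 2691 in Ly6Clow. The 10 B cell markers were all called lower in Ly6Chigh, and their summed linear level was 312 to 672 there against 5335 to 6345 in Ly6Clow. The 8 NK cell markers summed to 27 to 123 in Ly6Chigh and to 170 to 889 in Ly6Clow, with 7 of them called lower in Ly6Chigh. Of the other lists, 2 of 6 measured dendritic cell markers, 1 of 8 peritoneal macrophage and 1 of 10 T cell markers were called lower in Ly6Chigh. So were 1 of 4 eosinophil and 1 of 6 basophil and mast cell markers, and 1 of 7 neutrophil markers was called higher. Thus the Ly6Clow libraries held B and NK cell transcripts, and their part in the subset differences of the clotting genes was not tested. In bulk libraries, fewer cells of a type and less RNA per cell cannot be told apart. The sequencer was a NextSeq 500 for CT and a HiSeq 4000 for both models, and its effect and that of diabetes cannot be told apart wherever CT is compared.

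In the annotation of mm10 (GRCm38.p6), F13a1 lies on the minus strand of chr13:36867178-37050244, F5 on the plus strand of chr1:164151835-164220277 and Plaur at chr7:24460937-24475970. F7 (chr8:13025506-13035809) and F10 (chr8:13037308-13056676) are neighbours on the plus strand, 1498 bases apart with 0 genes between them. Promoter sequences, from 250 bases before to 50 bases after a start site, were taken from RefSeq on GRCm38.p6 and matched 7 of the 10 genes. The promoters of 4 genes are shown because these genes were higher in every Ly6Chigh library than in every Ly6Clow library. Capitals mark the letters GAGGAA (PU.1, the factor that directs myeloid cells), TGANTCA (AP-1) and TTGCNNAA (C/EBP) on either strand, none of which overlap in these windows.
F13a1 (chr13:37050195-37050494, minus strand): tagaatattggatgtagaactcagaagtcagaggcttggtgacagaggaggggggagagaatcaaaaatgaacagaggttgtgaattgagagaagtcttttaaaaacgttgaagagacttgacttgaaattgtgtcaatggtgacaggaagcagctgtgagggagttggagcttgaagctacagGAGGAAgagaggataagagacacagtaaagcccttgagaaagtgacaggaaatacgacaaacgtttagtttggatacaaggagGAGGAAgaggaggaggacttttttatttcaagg
F10 (chr8:13037058-13037357, plus strand): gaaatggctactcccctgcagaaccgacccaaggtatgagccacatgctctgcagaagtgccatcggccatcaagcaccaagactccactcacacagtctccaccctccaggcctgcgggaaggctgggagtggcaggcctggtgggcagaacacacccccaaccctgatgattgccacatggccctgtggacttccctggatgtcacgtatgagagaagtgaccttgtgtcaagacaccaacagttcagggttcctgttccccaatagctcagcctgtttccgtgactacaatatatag
F5 (chr1:164151585-164151884, plus strand): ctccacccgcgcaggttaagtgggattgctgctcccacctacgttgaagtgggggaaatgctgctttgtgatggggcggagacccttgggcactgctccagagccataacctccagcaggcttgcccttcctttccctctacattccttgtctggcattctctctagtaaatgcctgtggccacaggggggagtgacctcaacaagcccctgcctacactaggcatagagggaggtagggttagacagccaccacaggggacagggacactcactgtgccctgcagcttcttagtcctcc
Plaur (chr7:24462233-24462532, plus strand): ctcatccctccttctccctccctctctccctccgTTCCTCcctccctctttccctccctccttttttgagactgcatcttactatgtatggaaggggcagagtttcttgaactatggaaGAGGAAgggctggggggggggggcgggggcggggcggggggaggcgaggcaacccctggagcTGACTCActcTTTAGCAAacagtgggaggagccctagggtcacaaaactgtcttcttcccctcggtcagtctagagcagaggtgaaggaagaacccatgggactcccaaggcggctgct
With the start base counted as 1, the F13a1 promoter shown held GAGGAA at -66 to -61 and at 18 to 23. Another F13a1 promoter, not shown, held it at 15 to 20. The Plaur promoter held the PU.1 letters at -216 to -211 and -131 to -126, TGACTCA at -69 to -63, and the C/EBP letters at -59 to -52. No match to these 3 motifs lay in the F10 and F5 windows. GAGGAA was present in 28.1% of 32544 promoters of this length and in 4 of the 7 matched genes (F13a1, F7, Plaur and Tfpi). AP-1 letters were in 7.79% of promoters and 2 of the genes, and C/EBP letters in 10.8% of promoters and 2 of the genes. The 7 genes had 10 promoters, and a gene was counted when any of its promoters matched. The gene counts are thus not in the same unit as the shares of promoters. These matches describe the letters only and show neither binding nor control by the factors.

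To ask which clotting genes separate the MC subsets, the 4 Ly6Chigh libraries were compared with the 4 Ly6Clow libraries, with the mouse group in the model. Expression of F13a1, the gene of the factor XIII A chain, was 31.8-fold higher in Ly6Chigh. F10 was 4.76-fold higher and F5 was 2.13-fold higher. A gene was called when limma gave a Benjamini-Hochberg adjusted p under 0.01 over all genes and a change of more than 2-fold (|log2FC| above 1). By this rule 3 of the 10 genes were higher in Ly6Chigh and 0 were lower (6 had an unadjusted p under 0.05, all of them higher), whereas over all genes 5.37% were called higher and 6.76% lower. The median log2FC of the 10 genes was 0.88, against -0.08 over all genes. For 6 of the 10 genes every Ly6Chigh library lay above every Ly6Clow library (F13a1, F10, F5, Thbs1, Plaur and Plau), a pattern held by 16.4% of all genes. The reverse pattern was held by 0 of the 10 genes and by 16.3% of all genes. Because the 10 genes were chosen with earlier results known, these shares describe the list and are no test of it.

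**Figure D1:**
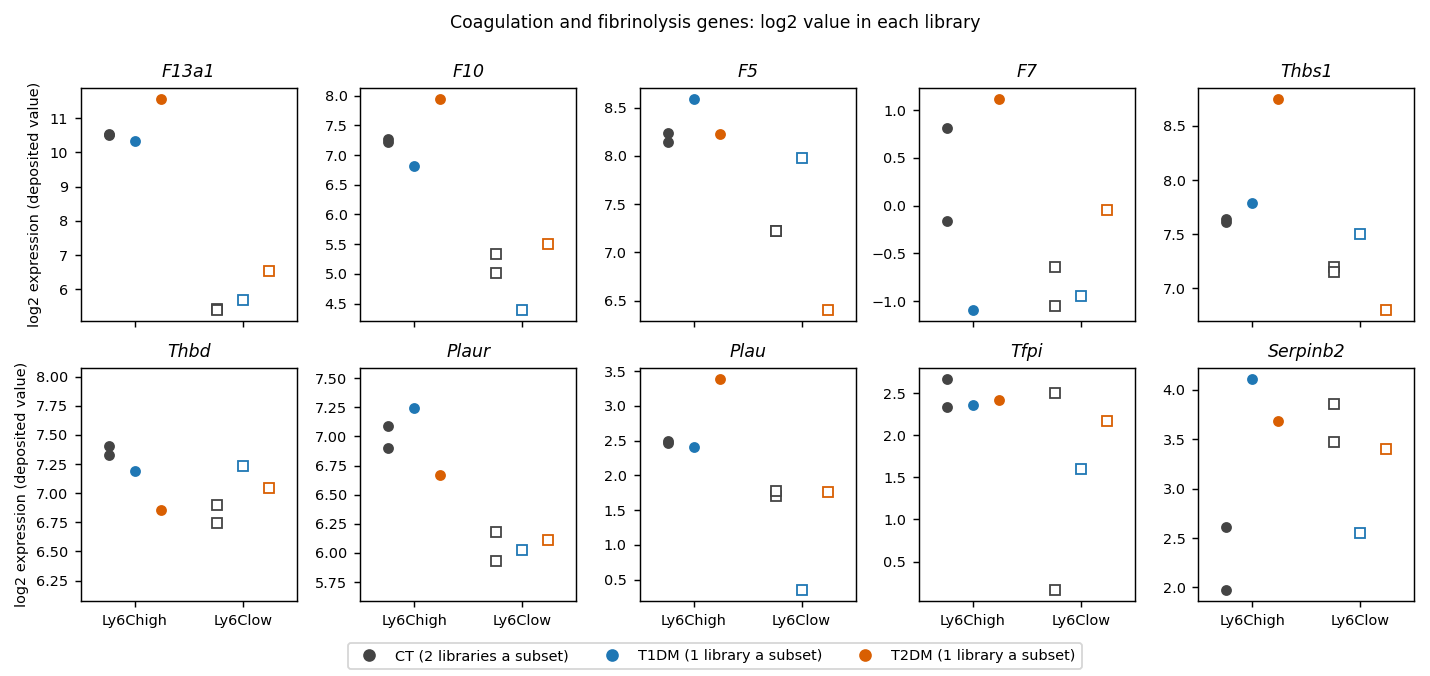
Deposited log2 value of each gene (y axis, a separate scale for each panel) in the 8 libraries, with filled circles for Ly6Chigh, open squares for Ly6Clow and colours for CT, T1DM and T2DM. F13a1 and F10 fall into separate bands for the subsets, whereas Thbd, F7, Tfpi and Serpinb2 overlap between them.

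F13a1 encodes the catalytic A chain of factor XIII. Its log2 values were 10.52 and 10.53 in CT Ly6Chigh, 10.33 in T1DM Ly6Chigh and 11.58 in T2DM Ly6Chigh, against 5.42 and 5.38 in CT Ly6Clow, 5.68 in T1DM Ly6Clow and 6.52 in T2DM Ly6Clow. The subsets did not overlap, and the lowest Ly6Chigh value stood far above the highest Ly6Clow value. The log2FC over the 8 libraries was 4.99 (SE 0.10, limma adjusted p = 6.51e-08), and in the CT libraries alone it was 5.13 (SE 0.05, adjusted p = 0.000561). Within T1DM the log2 difference was 4.65, and within T2DM it was 5.06. From high to low the order was T2DM, CT and T1DM within Ly6Chigh, and T2DM, T1DM and CT within Ly6Clow. Differences of CT from the neighbouring T1DM value exceeded the spread between the CT replicates in each subset, but T1DM and T2DM have no replicate of their own. F13a1 is itself among the 7 classical MC markers listed for the sort check, of which 6 were called higher in Ly6Chigh.

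F10 encodes the protease zymogen that, once active, makes thrombin. Its log2 values were 7.21 and 7.27 in CT Ly6Chigh, 6.81 in T1DM Ly6Chigh and 7.95 in T2DM Ly6Chigh, against 5.34 and 5.01, 4.39 and 5.51 in the matching Ly6Clow libraries. Ly6Chigh was above Ly6Clow throughout, and in each subset T1DM was lowest and T2DM highest. The log2FC between subsets was 2.25 (SE 0.12, adjusted p = 5.23e-06). In CT alone it was 2.07 (SE 0.14, adjusted p = 0.00784). The T2DM Ly6Clow value exceeded the nearer CT Ly6Clow value by less than the difference between the CT replicates.

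F7, the partner of tissue factor and the upstream neighbour of F10 in the genome, was near the low end of the table. It stood at -0.16 and 0.81 in CT Ly6Chigh, -1.10 in T1DM Ly6Chigh and 1.12 in T2DM Ly6Chigh, against -0.64 and -1.05, -0.95 and -0.05 in Ly6Clow. The subsets overlapped, since the T1DM Ly6Chigh value was the lowest of all 8. The subset log2FC of 0.84 (SE 0.43, adjusted p = 0.173) did not pass the test. F3, which encodes tissue factor, was looked for but was absent from the deposited expression table.

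F5 encodes the cofactor of activated factor X. Its log2 values were 8.14 and 8.23 in CT Ly6Chigh, 8.59 in T1DM Ly6Chigh and 8.22 in T2DM Ly6Chigh, against 7.22 and 7.22 in CT Ly6Clow, 7.98 in T1DM Ly6Clow and 6.40 in T2DM Ly6Clow. The subsets did not overlap, although T1DM Ly6Clow came close to the lowest Ly6Chigh library. The log2FC was 1.09 (SE 0.17, adjusted p = 0.00127), a 2.13-fold difference. It was 0.97 in CT alone (SE 0.06, adjusted p = 0.00637), below the 2-fold limit. The F5 call rests on that limit, because the log2FC was 0.84 after quantile normalization and 0.85 without the T2DM libraries, and ran from 0.84 to 1.25 over all alternatives.

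Plaur, the urokinase receptor, was at 7.09 and 6.90 in CT Ly6Chigh, 7.25 in T1DM Ly6Chigh and 6.67 in T2DM Ly6Chigh, against 6.18 and 5.93, 6.03 and 6.11 in Ly6Clow. The subsets did not overlap. The log2FC of 0.91 (SE 0.13, adjusted p = 0.000769) passed the p threshold but not the 2-fold limit, and without the T2DM libraries it was 1.03 and was called. Plau, which encodes urokinase itself, was at 2.50, 2.46, 2.42 and 3.39 in CT, T1DM and T2DM Ly6Chigh and at 1.70, 1.77, 0.35 and 1.76 in Ly6Clow. Plau was also higher in every Ly6Chigh library, with a log2FC of 1.30 (SE 0.31, adjusted p = 0.0124) that missed the p threshold. When genes with a mean log2 value under 1 were left out, the adjusted p for Plau was 0.00852, and after quantile normalization its log2FC was 1.68 (adjusted p = 0.00299). Over all alternatives the adjusted p for Plau ran from 0.00299 to 0.103.

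Thbs1 encodes thrombospondin 1, an adhesive protein of platelet granules that MCs and macrophages also make. It was at 7.61 and 7.64 in CT Ly6Chigh, 7.79 in T1DM Ly6Chigh and 8.75 in T2DM Ly6Chigh, against 7.19 and 7.15, 7.50 and 6.79 in Ly6Clow. T2DM held both the highest and the lowest of the 8 values, while the other libraries stayed within a narrow band. The subset log2FC was 0.79 (SE 0.24, adjusted p = 0.0357), and in CT it was 0.45 (SE 0.05, adjusted p = 0.0186), so neither was called.

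The values of Thbd and Tfpi, which restrain clotting, overlapped between the subsets. Thbd, thrombomodulin, which turns thrombin into an activator of protein C, was at 7.40, 7.32, 7.19 and 6.86 in CT, T1DM and T2DM Ly6Chigh and at 6.90, 6.74, 7.23 and 7.05 in Ly6Clow. Its log2FC was 0.21 over all libraries (SE 0.14, adjusted p = 0.281), with T1DM and T2DM at -0.04 and -0.19 and CT at 0.54. The sign of the Thbd estimate turned to -0.02 after quantile normalization. Tfpi, the inhibitor of the tissue factor pathway, was at 2.34, 2.67, 2.35 and 2.41 in Ly6Chigh and at 2.50, 0.16, 1.60 and 2.17 in Ly6Clow. The CT Ly6Clow replicates of Tfpi differed by 2.34, nearly the whole range of the 8 values, and its log2FC of 0.84 (SE 0.49, adjusted p = 0.225) did not pass the test.

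Serpinb2, plasminogen activator inhibitor 2, was the only gene of the 10 with a subset log2FC below 0, at -0.23 (SE 0.47, adjusted p = 0.752). It stood at 2.61 and 1.97 in CT Ly6Chigh, 4.11 in T1DM Ly6Chigh and 3.68 in T2DM Ly6Chigh, against 3.86 and 3.47, 2.55 and 3.40 in Ly6Clow. In CT the order was Ly6Clow over Ly6Chigh, and in both diabetic models it was the opposite. The CT log2FC was -1.37 (SE 0.33, adjusted p = 0.0686), and the log2 differences within T1DM and T2DM were 1.56 and 0.28. Of the 31-base words in Serpinb2 transcripts, 11.2% also occur in other genes, mostly Serpinb10, so reads of these genes may be split between them. For the other 9 genes the share was at most 4.4%, and the effect of shared words on the values was not tested.

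**Figure D2:**
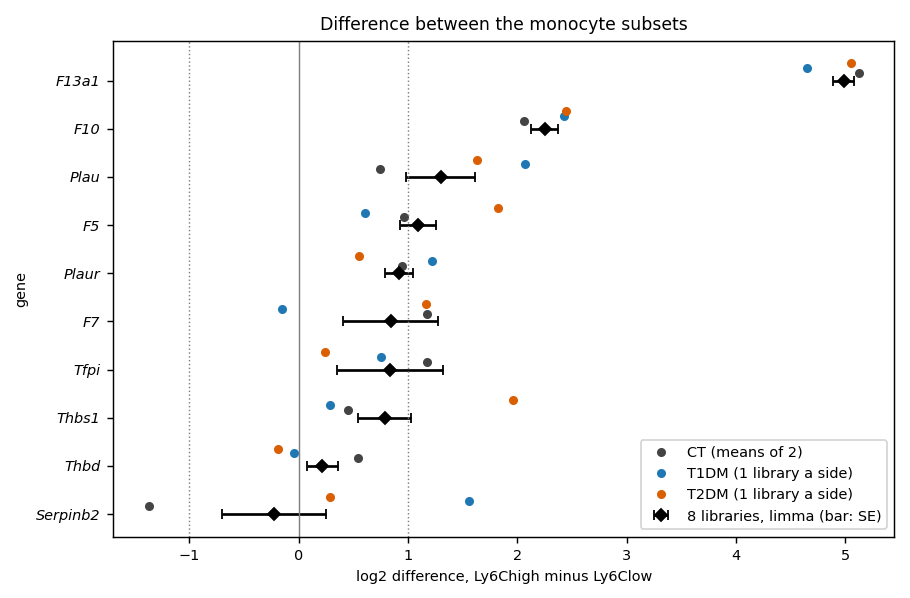
Log2 difference between Ly6Chigh and Ly6Clow (x axis) for each gene (y axis). Diamonds are the limma estimates over 8 libraries with SE bars, circles are the differences within CT, T1DM and T2DM, and dotted lines mark 2-fold. F13a1 at 4.99 and F10 at 2.25 stand apart, and Serpinb2 runs from -1.37 in CT to 1.56 in T1DM.

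In the CT libraries alone, F13a1 and F10 were called higher in Ly6Chigh and limma called 0 of the 10 genes lower, with 8 at an unadjusted p under 0.05 in either direction. Over all genes, 2.1% were called higher and 1.43% lower in that comparison. With the replicate number as a block, or with any CT library left out, limma called 0 genes of the whole table in CT.

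The genes whose profile over the 8 libraries was closest to that of F13a1 were Sgms2, Cd177 and Ly6c2. Likeness was the root mean square difference of values centred on each gene's mean, over the 5227 genes whose mean log2 was 5 or more, and it was 0.541, 0.572 and 0.588 for these genes against a median of 2.46. For F5 the closest were Dennd4c (0.183), Pros1 (0.218) and Leprotl1 (0.244), with a median of 0.653. For Thbs1 they were Cuta (0.159), Bcl2l11 (0.179) and Cfp (0.221), with a median of 0.537.

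Of 45 other listed genes of the pathway, 26 were measured, 4 were called higher in Ly6Chigh and 2 lower. Over all genes, 5.37% were called higher and 6.76% lower. The median log2FC of the 26 was 0.07, against -0.08 over all genes. Those called higher were Pros1, which encodes protein S, the cofactor of activated protein C (log2FC 1.32, SE 0.11, adjusted p = 4.99e-05), Anxa5, a shield of anionic phospholipid (1.75), Anxa2, a surface receptor for plasminogen (1.49), and Lrp1, which clears protease complexes (1.60). Thus 2 of 5 other anticoagulant genes and 2 of 8 other fibrinolysis genes were called higher, with 0 called lower in each group. Of the 8 fibrinolysis estimates, 5 were above 0 and 3 below. The plasminogen receptor gene Plgrkt was lower in every Ly6Chigh library than in every Ly6Clow library. Its log2FC was -0.97 (SE 0.18, limma adjusted p = 0.00313), short of the 2-fold limit. Pros1 was at 5.94 to 6.58 in Ly6Chigh and 4.46 to 5.44 in Ly6Clow, with no overlap. Its pattern was also among the closest to that of F5, whose active form protein S helps to cut.

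The thrombin receptor F2r was called lower in Ly6Chigh (log2FC -2.70, SE 0.29, adjusted p = 0.00017), at -0.15 to 1.78 against 3.05 to 4.29 in Ly6Clow. Fga, a fibrinogen chain of the liver, was also called lower (adjusted p = 0.00841), but it stood at the low end of the table, between -2.58 and 0.40. None of the 5 measured genes of the vitamin K cycle and factor secretion was called by limma, and 2 had an unadjusted p under 0.05. All 5 estimates in that group were above 0, with a median log2FC of 0.45. For the other clotting factors and cofactors, all 5 measured estimates were below 0, and 1 of them (Fga) was called.

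**Figure D3:**
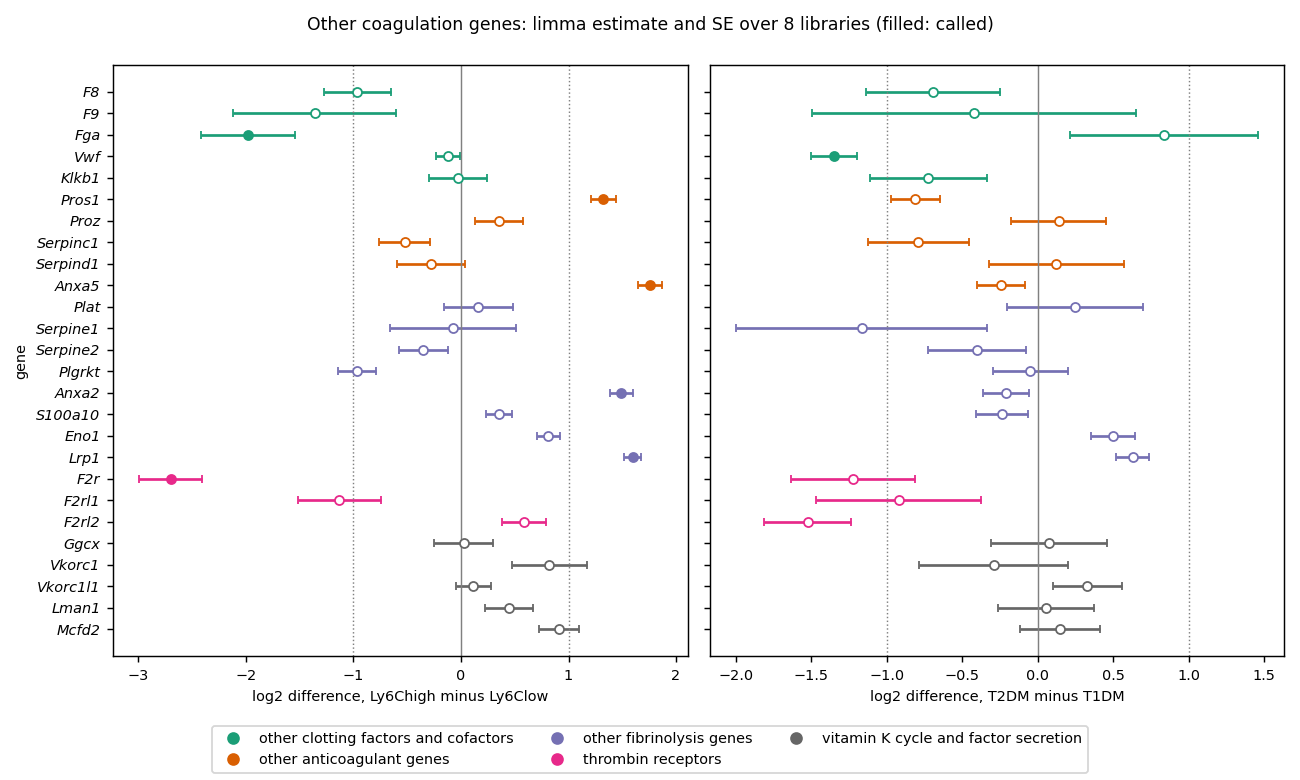
Log2 differences with SE (x axes) of the 26 other measured pathway genes (y axis), coloured by group, between subsets (left) and between T2DM and T1DM (right). Filled points are called: Pros1, Anxa5, Anxa2 and Lrp1 higher and Fga and F2r lower in Ly6Chigh, and Vwf lower in T2DM.

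The diabetic models were compared with each other over both subsets, since they shared a sequencer. Each model had 1 library of each subset, and both may come from the same 5 pooled mice. The fit counted these 2 libraries as repeats of a model, so its p-values do not measure the spread between mice. F13a1 was 2.06-fold higher in T2DM than in T1DM (log2FC 1.04, SE 0.14, limma adjusted p = 0.00761) and was the only gene of the 10 to be called. It was higher by 1.25 on the log2 scale in Ly6Chigh and by 0.84 in Ly6Clow. Over all genes, 0.2% were called higher in T2DM and 0.388% lower. The call did not survive most alternatives: the adjusted p was 0.113 without the mean-variance trend and 0.0225 with the replicate block, and F13a1 was lost when any library except T1DM Ly6Clow was left out. Over the 15 alternatives the log2FC ran from 0.82 to 1.27 and the adjusted p from 0.00423 to 0.363. Without the CT libraries its adjusted p was the highest of these, and 0 genes of the table were called.

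F10 had a T2DM minus T1DM log2FC of 1.13 (SE 0.18, adjusted p = 0.0165), with 1.14 in Ly6Chigh and 1.12 in Ly6Clow. F7 was at 1.56 (SE 0.61, adjusted p = 0.293) and Plau at 1.20 (SE 0.44, adjusted p = 0.262), both with large errors. These genes had T2DM above T1DM in both subsets but did not pass the test. F5 was at -0.98 (SE 0.24, adjusted p = 0.0931), with -0.37 in Ly6Chigh and -1.58 in Ly6Clow. The median of the 10 genes was 0.26, against 0 over all genes.

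**Figure D4:**
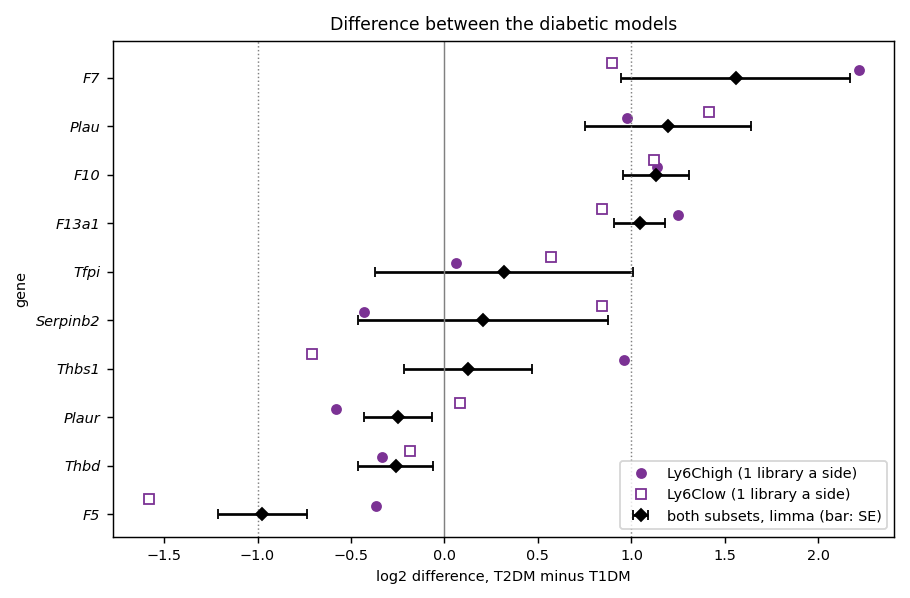
Log2 difference between T2DM and T1DM (x axis) for each gene (y axis), as limma estimates with SE bars and as the differences within Ly6Chigh and Ly6Clow. F13a1 and F10 lie above 0 in both subsets, F5 lies below 0 in both, and Thbs1 is at 0.96 in Ly6Chigh and -0.71 in Ly6Clow.

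Markers of other cells also moved between the models. All 14 platelet markers were below 0 in T2DM minus T1DM, with a median log2FC of -1.50, and those called lower included Ppbp (-2.31) and Itgb3 (-1.76). Pf4, a platelet chemokine, was at -0.90 (adjusted p = 0.0285). Summed on the linear scale, the platelet markers were at 1098 and 1198 in T1DM, 553 to 716 in CT and 304 and 360 in T2DM. Vwf, the von Willebrand factor of platelets and endothelium, was called lower in T2DM (log2FC -1.35, SE 0.15, adjusted p = 0.00314), at 5.22 and 5.27 against 6.57 and 6.62 in T1DM, and was the only other pathway gene called. Platelets also hold F5, F13a1 and Thbs1. F5 was highest within each subset in T1DM, where the platelet sum was highest. In T2DM, where the sum was lowest, F5 was lowest within Ly6Clow at 6.40. Within Ly6Chigh it was at 8.22 in T2DM, between the CT values of 8.14 and 8.23. F13a1 was highest within each subset in T2DM. Within Ly6Clow, Thbs1 had the order of the platelet sum, with T1DM at 7.50, CT at 7.19 and 7.15 and T2DM at 6.79. Within Ly6Chigh, Thbs1 was highest in T2DM, at 8.75. The part of platelet transcripts in the values of F5, F13a1 and Thbs1 was not tested. Between subsets, limma called 0 of the 14 platelet markers, with 1 at an unadjusted p under 0.05. Of the endothelial markers, 4 of 8 were measured, and limma called 0 in T2DM minus T1DM, with 1 at an unadjusted p under 0.05 (Esam, log2FC -2.27, SE 0.57, adjusted p = 0.103). Their summed linear level was 134 to 161 in CT, 66.0 and 235 in T1DM Ly6Chigh and Ly6Clow, and 39.1 and 237 in T2DM Ly6Chigh and Ly6Clow. Pecam1, which leukocytes and platelets also carry, was at 5.22 to 7.88, whereas Cdh5, Kdr and Esam lay between -2.21 and 2.09. The part of endothelial transcripts was not tested.

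**Figure D5:**
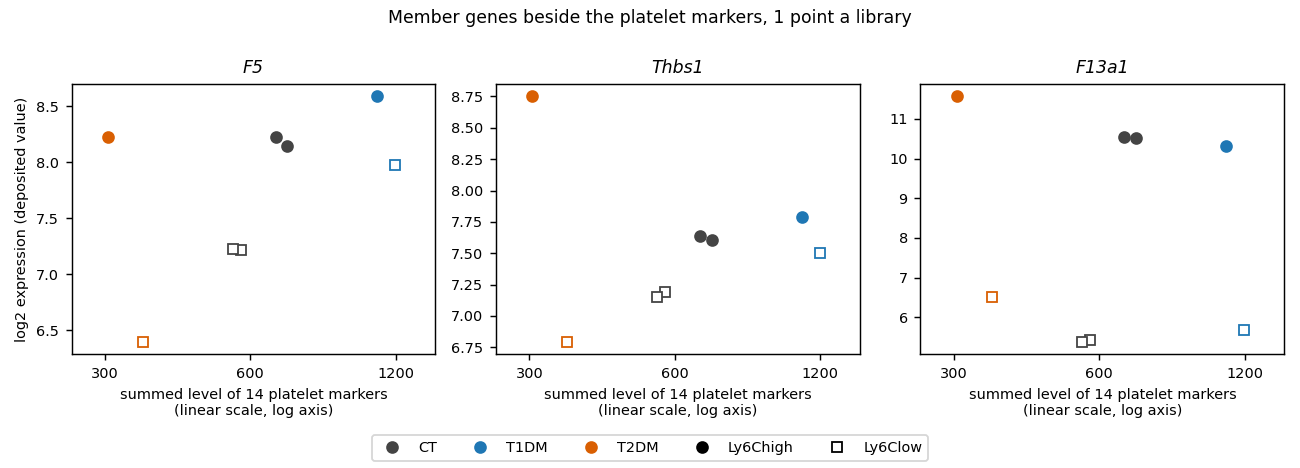
Log2 value of F5, Thbs1 and F13a1 (y axes) against the summed linear level of 14 platelet markers (x axis, log scale) in the 8 libraries, coloured by mouse group. The T2DM libraries have the lowest platelet sums, 304 and 360. T2DM Ly6Chigh holds the highest F13a1 and Thbs1 values, and T2DM Ly6Clow the lowest F5 and Thbs1 values.

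Other markers moved with F13a1 in T2DM. All 7 classical MC markers, F13a1 among them, were above 0 in T2DM minus T1DM, and 2 were called, F13a1 and Chil3 (log2FC 2.46, adjusted p = 0.0014). The neutrophil markers, of which 7 of 10 were measured, were also all above 0, with a median log2FC of 2.34 and 1 called. They summed to 1027 in T2DM Ly6Chigh, mainly through Mmp8 at 9.70, and to 161 to 172 in the other Ly6Chigh libraries. In Ly6Clow they summed to 125 in T2DM, against 31 and 32 in CT and 25 in T1DM. The NK cell markers were all below 0, and 5 of 8 were called lower in T2DM. The part of these cells in the F13a1 result was not tested.

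The difference of the subset effects between mouse groups was tested directly, with the spread taken from the CT replicates. For Thbs1 the subset difference was larger in T2DM than in T1DM by 1.67 on the log2 scale (SE 0.10, adjusted p = 0.25) and larger than in CT by 1.51 (SE 0.09, adjusted p = 0.101). For F5 the T2DM subset difference exceeded that of T1DM by 1.21 (SE 0.11, adjusted p = 0.275). For Serpinb2 the T1DM subset difference exceeded that of CT by 2.93 (SE 0.56, adjusted p = 0.35). None of these passed the test, so the values above are not shown to differ between the mouse groups. Limma called 0% of all genes in each of the 3 contrasts. An unadjusted p under 0.05 was reached by 3 of the 10 genes for T2DM against T1DM (11.4% of all genes), by 4 for T2DM against CT (13.9%) and by 5 for T1DM against CT (11%).

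Against CT, each diabetic library was compared without a test, since each had no replicate. In T1DM Ly6Chigh, 2 of the 10 genes were past 2-fold (10.1% of all genes), with Serpinb2 at a log2 difference of 1.82 and F7 at -1.43. In T1DM Ly6Clow, 2 were past 2-fold (8.81% of all genes), with Plau at -1.39 and Serpinb2 at -1.11. In T2DM Ly6Chigh, 3 were past 2-fold (13.8% of all genes), with Serpinb2 at 1.39, Thbs1 at 1.13 and F13a1 at 1.05. In T2DM Ly6Clow, F13a1 alone was past 2-fold, at 1.12 (10.8% of all genes). Serpinb2 was thus above CT in Ly6Chigh of both models, against CT values of 2.61 and 1.97 that themselves differed by 0.64. Over all genes, the SD of the difference between group means was 0.384 for T1DM minus CT, 0.526 for T2DM minus CT and 0.743 for T2DM minus T1DM, with 4 CT libraries and 2 of each model. For CT minus the mean of all diabetic libraries it was 0.272. By this measure CT lay closer to the mean of the models than to either model. Both CT values lay between T1DM and T2DM for 5 of the 10 genes in Ly6Chigh (F13a1, F10, F7, Plaur and Plau) and for 3 in Ly6Clow (F10, F5 and Thbs1). The share of all genes with this order was not computed, and the order may be common over all genes. These counts thus describe the 10 genes only and show no trait particular to them. Whether values had been adjusted for sequencer is not given in the sources used here. Some genes had tied low values that differed by sequencer. Fga was at -2.58 in both CT Ly6Chigh libraries and at -2.44 in T1DM and T2DM Ly6Chigh. The basophil and mast cell marker Prss34 was at -1.89 and at -2.59 in the same libraries. A gene-wise adjustment was not tested, so differences from CT may not be those of unadjusted values.

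Between the models within a subset, T2DM Ly6Chigh differed from T1DM Ly6Chigh past 2-fold for F7 (2.22), F13a1 (1.25) and F10 (1.14), beside 19.3% of all genes. In Ly6Clow the genes past 2-fold were F5 (-1.58), Plau (1.41) and F10 (1.12), beside 15.3% of all genes. F10 was past 2-fold in both. Between subsets within T1DM, F13a1, F10, Plau (2.07), Serpinb2 (1.56) and Plaur (1.22) were past 2-fold, all higher in Ly6Chigh (27.9% of all genes in either direction). Within T2DM, F13a1, F10, Thbs1 (1.96), F5 (1.82), Plau (1.63) and F7 (1.17) were past 2-fold, again all higher in Ly6Chigh (29.1% of all genes).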

How the data were processed

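Ly6Chigh and Ly6Clow MCs of CT, T1DM and T2DM mice were profiled by RNA-Seq. Per the submitters' processing notes and the study's methods, the authors quantified reads with Kallisto 0.45, summarised transcripts to genes in R (3.6.1) using tximport, version 1.12.3, and named the build mm10. The authors deposited log2 values of 16486 genes (-4.05 to 15.6) with no counts, so the read number that the study gives could not be checked. Their scaling, filter on low genes and any adjustment for sequencer are not given in the sources used here. Libraries were grouped by their titles. The study describes more libraries than the 8 used, and the others were not analysed here.

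All genes were fitted with limma 3.58.1 (R 4.3.3; lmFit, eBayes with trend, Benjamini-Hochberg adjustment over all genes). The subset test used all 8 libraries and a mouse group term, and was repeated in the 4 CT libraries. T2DM and T1DM were compared in the first fit, and differences of subset effects in a fit of 6 groups, in which each diabetic library was assumed to vary like the CT replicates. Calls needed an adjusted p under 0.01 and |log2FC| above 1. Comparisons with 1 library on a side have no test. The fits were tested on simulated data. Alternatives were a mean log2 filter at 1, 1 added on the linear scale, quantile normalization, eBayes without trend, an adjusted p under 0.05, a replicate block, and leaving out libraries or mouse groups.

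The 10 genes, 17 marker and pathway lists and motifs were chosen with earlier results of these data known. Named were the 10 genes, other pathway genes called between subsets or between T2DM and T1DM, F3 and Plgrkt. Marker genes that bear on a result were also named. So were the 3 genes most like each of the 3 of the 10 with the highest mean. Shared 31-base words were counted over GENCODE M21 transcripts. Figures were drawn with matplotlib 3.10.9. The value of 1 platelet marker is not reported here.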

Additional observations from a re-analysis of the deposited data

How the results depend on the processing

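Calls rested on few libraries. Between subsets, F13a1 and F10 were called under every alternative except without the CT libraries, where limma called 0 of the 10 clotting genes and 0 genes of the table in a fit with few residual degrees of freedom. The count of clotting genes called was 3 without any 1 library, but without a T2DM library Plaur replaced F5. F5 was also not called without the trend (adjusted p = 0.0147). The depth of each library could not be checked from the deposited values, so what it limits could not be assessed.

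In CT alone the count of clotting genes called fell from 2 to 0 without the trend, with the replicate block and without each CT library (range 0 to 0), and all genes called went from 581 to 0. That count was 1089 with the filter and 1936 at an adjusted p under 0.05. For T2DM against T1DM, 1 clotting gene was called in the reported fit, 0 without the trend, 0 with the replicate block, 0 without the CT libraries, 2 at an adjusted p under 0.05 and 0 to 1 without 1 library. All genes called in that comparison numbered 97, against 26 without the trend, 253 at an adjusted p under 0.05, 62 with the block, 0 without the CT libraries and 24 to 146 without 1 library. The higher and lower calls there were 33 and 64, but 17 and 9 without the trend. CT replicate differences correlated at 0.00892 over genes between subsets. This value cannot show whether libraries with the same replicate number were paired, because technical repeats may share no difference to detect. With the replicate block, 3 clotting genes were called between subsets over the mouse groups. Quantile normalization moved the median subset log2FC of all genes from -0.08 to 0.04.

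Some uncalled estimates changed sign, and the cause was not tested. The subset log2FC of Thbd was -0.0186 after quantile normalization and -0.11 without the CT libraries. That of Serpinb2 was 0.92 without the CT libraries and ran from -0.82 to 0.13 when 1 library was left out. Leaving out 1 library gave T2DM minus T1DM ranges of -0.65 to 0.91 for Thbs1, -0.99 to 1.39 for Serpinb2, -0.53 to 0.00814 for Thbd and -0.0794 to 0.71 for Tfpi. The difference of subset effects between T2DM and T1DM was -0.11 for F10 after quantile normalization. That between T2DM and CT was 0.14 for F7 with 1 added, -0.49 to 0.48 for F7 and -2.10 to 0.24 for Tfpi without 1 CT library, and that between T1DM and CT was -1.59 to 0.75 for Tfpi.

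Clotting genes past 2-fold against CT numbered 1 with 1 added and 1 to 2 without a CT replicate in T1DM Ly6Chigh, 0 with 1 added in T1DM Ly6Clow, and 1 to 3 without a CT replicate in T2DM Ly6Clow. Among the values of single genes under an alternative, 660 kept their direction and their side of the threshold, 30 lost a call in the same direction, 7 gained one and 17 changed sign. Part of the 660 could not have changed sign. The difference of subset effects between T2DM and T1DM does not use the CT values, and another p threshold leaves an estimate as it is. The count is thus no measure of stability.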
